A study of Mus musculus with 18 samples.

Results

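Erythroblasts sorted from mouse spleen as CD71+/TER119+ cells were divided by how much Cd79a their RNA-seq libraries held. Cd79a encodes a chain of the B cell antigen receptor and is not a transcript of the red cell lineage. Members were chosen by that measured value: libraries with at least 10 Cd79a counts per 1000000 counts of the library total (CPM of the total) are called Cd79a-rich here, and those under 10 Cd79a-poor. This gave 9 Cd79a-rich and 9 Cd79a-poor libraries, together all 18 libraries of the study, each from a spleen with its own mouse identifier. The mice carried combinations of a missense allele of Klf1 (D45, or MommeD45, which the series title places in linker-2 of the zinc finger protein), a KO allele and the wild-type allele (WT). D45/KO mice, with a D45 and a KO allele and no wild-type allele, gave 3 Cd79a-rich libraries and 1 Cd79a-poor library. D45/D45 mice, homozygous for D45, gave 1 and 2, and WT/KO mice, with a wild-type and a KO allele, gave 3 and 2. WT/D45 mice gave 1 and 2, and WT/WT mice, the wild type, also gave 1 and 2. The labels name no agent given to the mice or cells. The deposited design text describes mice that are compound heterozygous for Klf1 mutations as anaemic with an enlarged spleen that is rich in erythroid precursors. The sources used here give neither the age of the mice nor the part of the gene that the KO allele lacks.

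The mouse spleen makes red cells in its red pulp, where macrophages surround the erythroblasts and clear old red cells, beside follicles of B cells and zones of T cells. A proerythroblast divides several times while it switches on haem synthesis, membrane proteins and globin. It then leaves the cell cycle, clears its mitochondria and ends as a reticulocyte whose mRNA is mostly globin. CD71, the transferrin receptor, is on the surface of young erythroblasts and is lost late, while TER119 marks erythroblasts and mature red cells. KLF1 is a zinc finger activator of globin, haem and membrane genes that binds CACC-type DNA elements and works beside GATA1. B cells carry an antigen receptor with the CD79A and CD79B chains and present antigen on MHC class II with the help of CD74.

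The 250 bases before the annotated start are shown for Cd79a, which divides the libraries, and for Beta-s and Alas2, which stood for globin and haem synthesis among the genes that were lower in Cd79a-rich libraries. The sequences are RefSeq's, on build GRCm38.p6, while the submitters' processing notes name mm9, so their coordinates are not those of the counting. Capitals mark a match to a CACC-type element (CCACACCC), a GATA element (AGATAA, which reads TTATCT on the other strand) or an ETS element (GGAAGTG). Each motif was searched on both strands.
Cd79a, chr7:24897247-24897496, plus strand: Cd79a
Beta-s, chr7:103827929-103828178, minus strand: Hbb-bs
Alas2, chrX:150547167-150547416, plus strand: Alas2
The Cd79a window held GGAAGTG starting 54 bases before the start and neither of the other 2 motifs. The Beta-s window, which RefSeq lists under the name Hbb-bs, held CCACACCC at 93 bases and AGATAA at 210 bases before the start. In the Alas2 window there was AGATAA, on the other strand, at 86 bases before the start. Of all 32851 windows of this length, 3.20% held CCACACCC, 9.99% AGATAA and 8.55% GGAAGTG. A match is a description of the letters and no evidence of binding.

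The division left a wide gap. Cd79a stood at 34.1, 111 and 24.1 CPM of the total in the Cd79a-rich D45/KO libraries, at 398, 312 and 357 in WT/KO, and at 127, 255 and 180 in D45/D45, WT/D45 and WT/WT. In Cd79a-poor libraries it stood at 0.468 in D45/KO, 0 and 0.119 in D45/D45, 0 and 0.324 in WT/KO, 0.758 and 0.0715 in WT/D45, and 1.35 and 0.170 in WT/WT. The library just inside the threshold was D45/KO replicate 3 at 24.1, and the one just outside was WT/WT replicate 2 at 1.35. Thresholds of 5 or 20 CPM moved 0 libraries.

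The libraries differ in other ways that run along the division. All 5 libraries numbered replicate 1 were Cd79a-rich. Mouse identifiers were under 200 in 7 of the 9 Cd79a-rich libraries, and in 0 of the 9 Cd79a-poor libraries. The sources used here do not say what the identifiers stand for. Totals ran between 9360455 and 56323588 counts (median 34438514) in Cd79a-rich libraries and between 15838815 and 42025907 (median 24557034) in Cd79a-poor libraries. Globin transcripts took 6.28% at the lowest, 10.1% at the median and 19.1% at the highest of the counts in Cd79a-rich libraries, against 14.1%, 32.5% and 47.2% in Cd79a-poor libraries. Genes at 1 CPM of the total or more numbered 9893 to 11501 in Cd79a-rich libraries and 8020 to 9782 in Cd79a-poor libraries. In 2 Cd79a-rich libraries, D45/D45 replicate 1 and D45/KO replicate 2, 96.2% and 97.8% of the counts over 100 were even numbers, against 49.5% to 72.7% elsewhere. WT/KO replicate 3, also Cd79a-rich, had 11.5% of its counts on the ribosomal RNA gene Rn45s, against 1.47% or less in every other library. Male libraries, by Ddx3y over 10 CPM of the TMM-scaled library, were 3 of the Cd79a-rich and 1 of the Cd79a-poor. Depth does not divide the classes, since the Cd79a-poor totals lie inside the Cd79a-rich range. Because identifier, replicate number and class move together, their parts in the values below cannot be fully told apart by the design. Without both libraries of even counts 5806 genes were called, and 6 of the 94 genes named by rule lost their call.

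**Figure D1:**
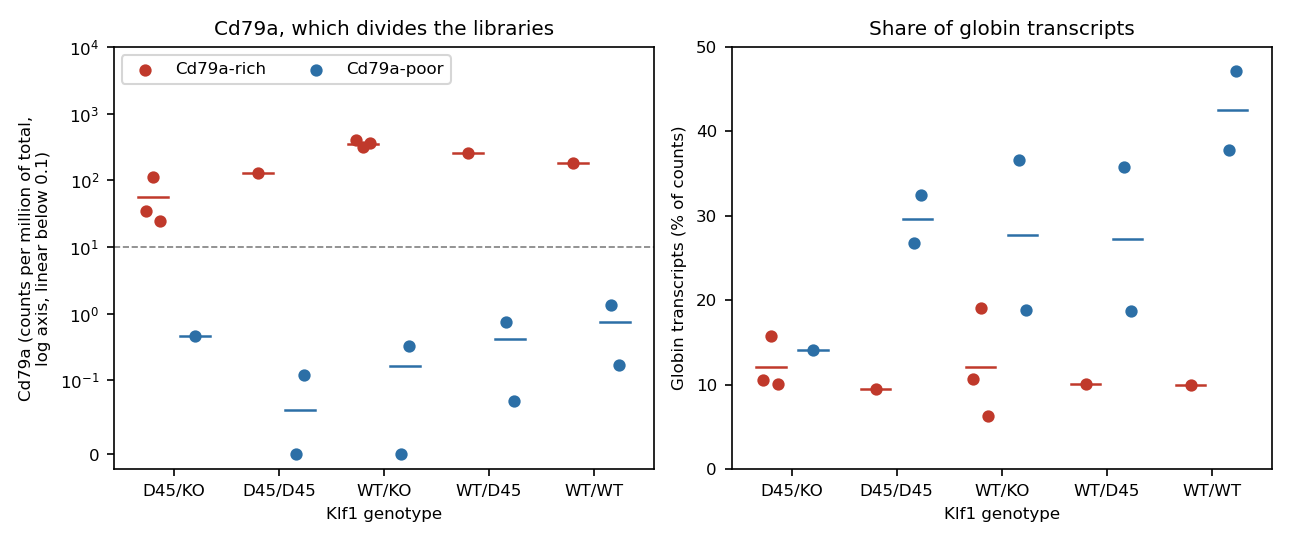
Left, Cd79a in CPM of the library total (log axis, linear below 0.1), right, globin transcripts as a percentage of the counts, by Klf1 genotype; each point is 1 library, Cd79a-rich left of Cd79a-poor, and bars are means. Cd79a-rich libraries sit at 24.1 or more, Cd79a-poor libraries at 1.35 or less, and the median globin share is 10.1% in Cd79a-rich and 32.5% in Cd79a-poor libraries.

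The fit compared Cd79a-rich with Cd79a-poor libraries with genotype as a block, using edgeR's quasi-likelihood test. Genes were called where the p adjusted by Benjamini and Hochberg's method over all 13405 tested genes was under 0.05. It called 6899 genes, or 51.5% of those tested. Of these, 3846 (28.7% of the tested) were higher and 3053 (22.8%) lower in Cd79a-rich libraries. Because the classes were read from a transcript of the same libraries, these calls describe what goes along with the division and are no independent evidence for it. A called rise of more than 8-fold was found for 1400 genes, and a called fall of more than 8-fold for 47 genes. Within all 5 genotypes, 3531 of the genes called higher had a higher mean log2 level in Cd79a-rich libraries, and 2800 of those called lower had a lower one. Values in all 9 Cd79a-rich libraries lay above all 9 Cd79a-poor ones for 852 genes (6.36%) and below them for 813 (6.06%). An interaction of class with genotype was called for 0 genes by the same test, while 475 genes had an unadjusted p under 0.05. The split depends on the scaling. Of the called genes 55.7% were higher in Cd79a-rich libraries, against 97.2% of 9384 called genes when libraries were scaled by their totals alone, and 66.0% of 7829 with DESeq2's own test. The median log2 fold change of all tested genes was 0.28 with TMM scaling, 0.49 with DESeq2's size factors and 1.53 with totals. All 22 gene lists described here had a median on the same side of that all-gene median in all 4 scalings tried. A change of scaling shifts every gene by nearly the same amount. This could therefore hardly have come out otherwise and lends no support of its own. Levels of genes are given below as CPM of the TMM-scaled library (simply CPM from here on), in the order lowest, median and highest of a class. Fold changes are log2, Cd79a-rich over Cd79a-poor, with the standard error. Counts of list genes that rose or fell are calls, to be read against 28.7% higher and 22.8% lower over all genes tested. In bulk RNA, fewer cells of a type and less RNA per cell cannot be told apart, and this holds for each programme below.

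The B cell list held the genes the division was built on and those that go with it, and is given as a description with no test. Cd74, the invariant chain of MHC class II, stood at 198, 934 and 2107 CPM in Cd79a-rich libraries and at 20.3, 47.5 and 166.1 CPM in Cd79a-poor libraries, with a log2 fold change of 4.102. Blk, a B cell tyrosine kinase of the Src family, stood at 7.22, 58.4 and 96.5 CPM in Cd79a-rich libraries against 0, 0.0577 and 0.501 CPM in Cd79a-poor libraries, 4 of which held no count. Spib, an ETS factor of B cells and plasmacytoid dendritic cells, had 15.5, 62.6 and 185 CPM in Cd79a-rich libraries and 0, 0.202 and 1.49 CPM in Cd79a-poor libraries, 3 of which held no count. Cd74, Blk and Spib thus each separated the classes without overlap, as Cd79a did by construction. All 20 B cell genes did the same, and log2 fold changes ran between 4.102 for Cd74 and 9.08 for Faim3, an Fc receptor for IgM. Ms4a1, which encodes CD20, stood at 21.7, 148 and 258.7 CPM in Cd79a-rich libraries and 0, 0.143 and 1.92 CPM in Cd79a-poor libraries. The complement receptor Cr2 of follicular and marginal zone B cells stood at 37.7, 224 and 347 CPM in Cd79a-rich libraries and 0, 0.173 and 3.33 CPM in Cd79a-poor libraries. Summed over the list, B cell transcripts came to 479, 2289 and 4639 CPM in Cd79a-rich libraries and to 26.5, 59.1 and 189 CPM in Cd79a-poor libraries. Cd74 made up most of the sum in the Cd79a-poor libraries. No B cell gene was at 0 in all Cd79a-poor libraries.

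The 9 MHC class II genes followed the same division, and are likewise given with no test. Their summed level was 195, 1075 and 1662 CPM in Cd79a-rich libraries and 14.98, 43.4 and 149.98 CPM in Cd79a-poor libraries. H2-Ob and H2-DMb2, whose products act on peptide loading, had log2 fold changes of 8.23 and 8.504, while the antigen-presenting chains H2-Aa, H2-Eb1 and H2-Ab1 had 4.53, 4.46 and 4.42. H2-Aa and H2-Eb1 were the 2 members whose classes overlapped.

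**Figure D2:**
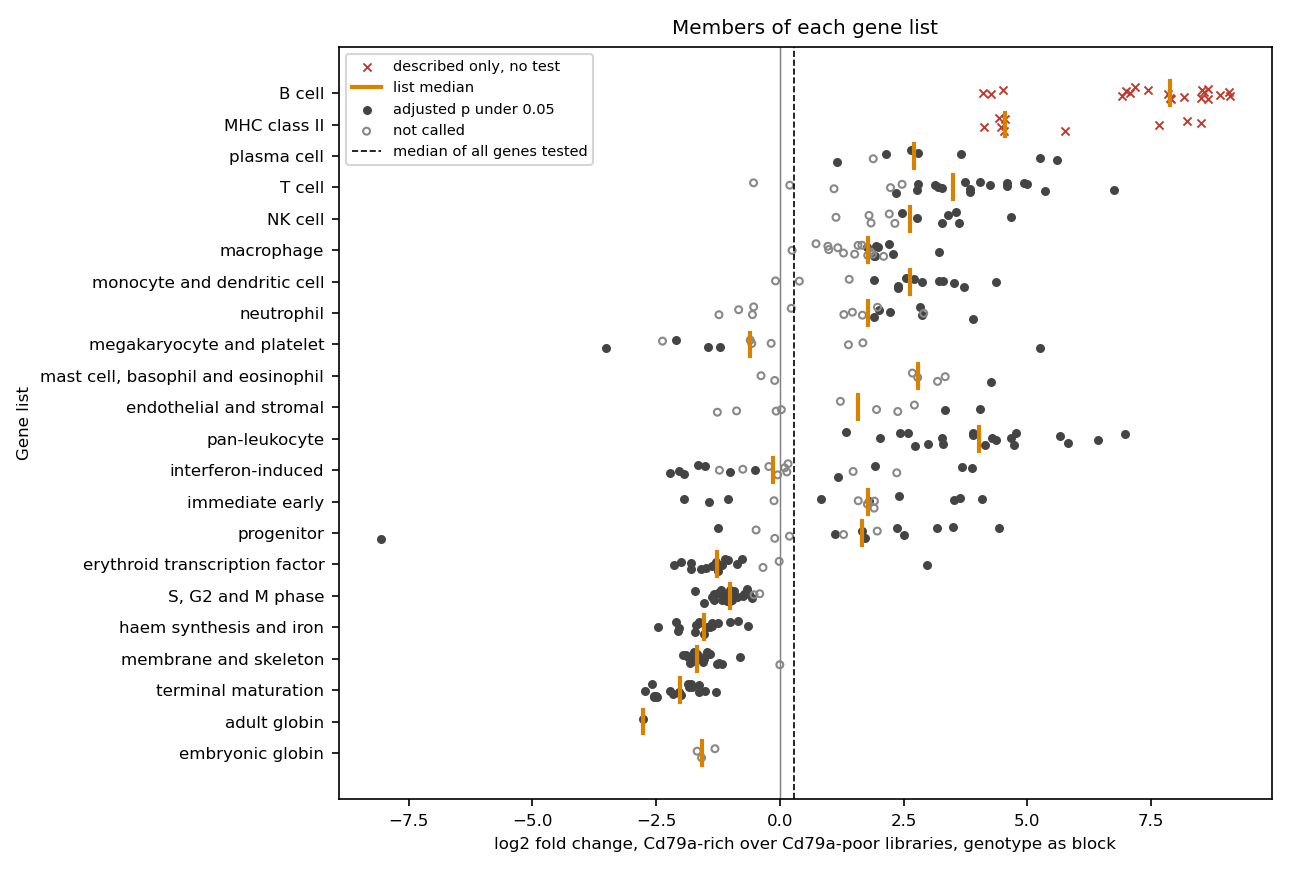
Log2 fold change, Cd79a-rich over Cd79a-poor with genotype as a block, for every tested member of each gene list (rows); filled points are called, open points not called, crosses belong to the lists tied to the division and carry no test, and orange bars are list medians. Lists of other spleen cells lie to the right of the all-gene median of 0.28, apart from megakaryocyte genes at a median of -0.60, the progenitor list lies at 1.65, and the lists of erythroid transcription factor, cell cycle, haem, membrane, terminal maturation and globin genes lie to the left of 0.

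Plasma cell and T cell genes were higher in Cd79a-rich libraries. Of 8 plasma cell genes 7 rose and 0 fell, with a list median of 2.71 against 0.28 for all genes. Irf4, a factor of plasma cell differentiation that activated B and T cells also use, had 2.96, 21.1 and 48.7 CPM in Cd79a-rich libraries and 0.067, 0.331 and 1.71 CPM in Cd79a-poor libraries, a change of 5.601 ± 0.53 (SE, adjusted p = 3.56e-07). Its 2 classes did not overlap, nor did those of Mzb1 and Derl3, endoplasmic reticulum proteins of antibody secretion, which rose by 5.25 and 3.65. Of 22 T cell genes 17 rose and 0 fell, with a median of 3.50. Ccr7, the receptor that guides T cells and B cells into lymphoid zones, had 2.61, 9.83 and 27.9 CPM in Cd79a-rich libraries and 0, 0 and 0.623 CPM in Cd79a-poor libraries, a change of 6.75 ± 0.62 (SE, adjusted p = 2.77e-07). Cd3g, a chain of the T cell receptor complex, had 0.174, 1.39 and 4.33 CPM in Cd79a-rich libraries and 0, 0 and 0.918 CPM in Cd79a-poor libraries, a change of 5.35 ± 1.16 (SE, adjusted p = 0.000835), and its classes overlapped. Cd5, carried by T cells and by a subset of B cells, rose by 4.99, while Lck and Cd247, which signal from the T cell receptor, were not called, at 0.20 and -0.53. The T cell list summed to 19.0, 51.3 and 158 CPM in Cd79a-rich libraries and 10.1, 19.995 and 41.3 CPM in Cd79a-poor libraries, so it stayed far below the B cell sum in Cd79a-rich libraries.

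Of 12 NK cell genes 7 rose and 0 fell, with a median of 2.62. Il2rb, the interleukin 2 and 15 receptor chain, had 0.87, 3.11 and 12.5 CPM in Cd79a-rich libraries and 0, 0.201 and 0.583 CPM in Cd79a-poor libraries without overlap, a change of 4.67 ± 0.75 (SE, adjusted p = 5.42e-05). Gzmb, which encodes granzyme B, rose by 3.61, and by 5.77 without the Cd79a-poor library WT/KO replicate 4. Tbx21, which encodes T-bet, rose by 3.56. The list summed to 5.22, 22.04 and 95.1 CPM in Cd79a-rich libraries and 0.786, 5.14 and 22.7 CPM in Cd79a-poor libraries. All 20 pan-leukocyte genes, many of which B cells also express, rose, with a median of 4.03. Their sum was 491, 1629 and 3109 CPM in Cd79a-rich libraries and 109, 214 and 341 CPM in Cd79a-poor libraries, without overlap. Ikzf3 (Aiolos) and Cd37, which lymphocytes carry, rose by 6.98 and 6.42, each without overlap.

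Macrophage genes differed between single libraries. Of 21 genes 8 rose (38.1%, against 28.7% of all genes tested) and 0 fell, the median was 1.77, and 0 members separated the classes. Csf1r, the receptor macrophages need for survival, had 22.6, 61.9 and 507 CPM in Cd79a-rich libraries and 9.86, 17.8 and 71.8 CPM in Cd79a-poor libraries, a change of 2.28 ± 0.69 (SE, adjusted p = 0.0106). Mrc1, the mannose receptor, had 16.0, 33.6 and 307 CPM in Cd79a-rich libraries and 3.64, 10.6 and 29.7 CPM in Cd79a-poor libraries, a change of 2.19 ± 0.69 (SE, adjusted p = 0.0129). Both receptors overlapped between the classes. Timd4, a receptor for dying cells, rose by 3.21, a call that was lost without D45/KO replicate 4 (2.56), WT/KO replicate 4 (2.52), WT/KO replicate 5 (2.68) or WT/D45 replicate 1 (3.45). Genes of the red pulp macrophage that recycles haem iron were not called: Spic, its lineage factor, was at 0.73, Hmox1, haem oxygenase, at 0.97 and Slc40a1, ferroportin, at 0.25, and erythroblasts also express Slc40a1. Single libraries were high all the same. Spic and Hmox1 had 62.3 and 801 CPM in D45/KO replicate 2, and 91.2 and 894 CPM in WT/KO replicate 2. Other Cd79a-rich libraries had at most 26.4 and 203 CPM. The highest Cd79a-poor library, WT/WT replicate 3, had 45.2 and 415 CPM. The mean log2 level of the list was 3.39, 7.03 and 4.70 in the Cd79a-rich D45/KO libraries, 3.97, 6.996 and 6.11 in WT/KO, and 3.47, 3.75 and 3.81 in D45/D45, WT/D45 and WT/WT. In Cd79a-poor libraries it was 2.13, 2.88 and 4.61 at the lowest, median and highest. Summed CPM was highest in D45/KO replicate 2 at 5153, WT/KO replicate 2 at 4959 and WT/KO replicate 3 at 2695, while Cd79a-poor libraries had 321 to 1265. Within WT/WT the Cd79a-rich library lay 0.33 below the Cd79a-poor ones at the list median, against 2.62, 0.94, 2.23 and 0.95 above them in D45/KO, D45/D45, WT/KO and WT/D45.

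**Figure D3:**
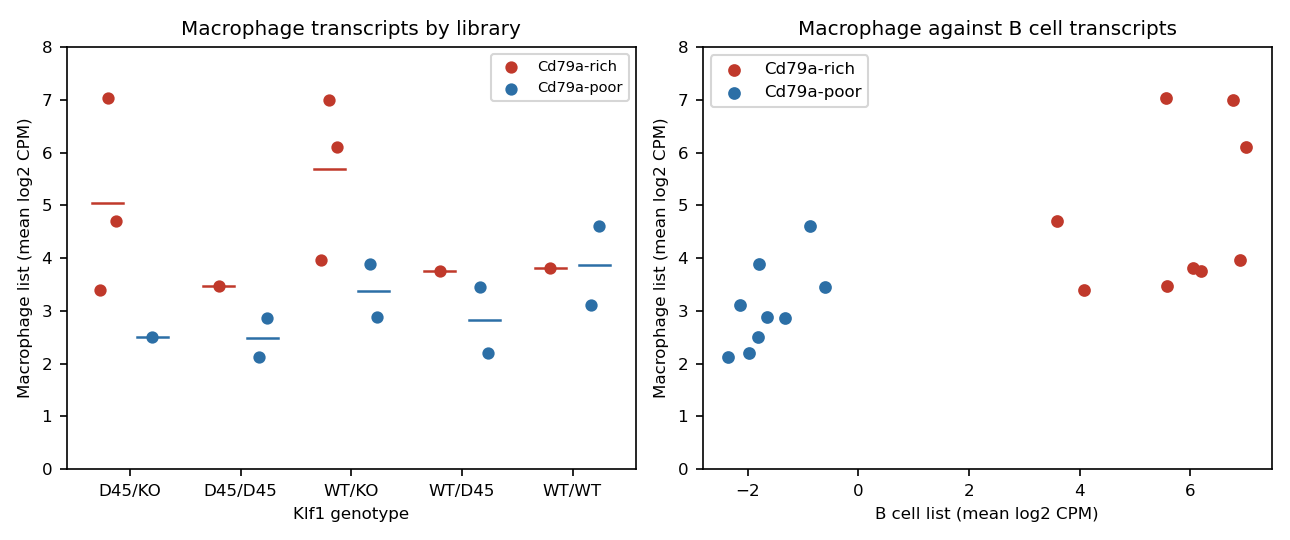
Left, mean log2 CPM of the macrophage list by Klf1 genotype, Cd79a-rich left of Cd79a-poor, with bars at means; right, the same values against the mean log2 CPM of the B cell list, 1 point per library. The macrophage level spans 3.39 to 7.03 in Cd79a-rich and 2.13 to 4.61 in Cd79a-poor libraries, and the 3 highest are D45/KO replicate 2, WT/KO replicate 2 and WT/KO replicate 3.

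Of 14 monocyte and dendritic cell genes 11 rose and 0 fell, with a median of 2.63. Clec9a, a receptor of the cross-presenting dendritic cell, had 0.513, 1.38 and 2.32 CPM in Cd79a-rich libraries and 0, 0 and 4.06 CPM in Cd79a-poor libraries, a change of 4.36 ± 1.17 (SE, adjusted p = 0.0047). Its classes overlapped through WT/D45 replicate 2, a Cd79a-poor library. Cd209a, a lectin of monocyte-derived dendritic cells, rose by 3.51. Of 16 neutrophil genes 6 rose (37.5%, against 28.7% of all genes tested) and 0 fell, with a median of 1.78. The rises included the granule proteins Ltf and Lcn2, at 2.82 and 2.86, and the chemokine receptor Cxcr2 at 3.90. The Lcn2 call was lost without D45/D45 replicate 1 (2.25), WT/KO replicate 4 (2.62) or WT/KO replicate 5 (2.47), and that of Cxcr2 without D45/D45 replicate 1 (3.42), WT/KO replicate 3 (3.17) or WT/WT replicate 1 (3.42). Without the 2 libraries of even counts all 3 calls were lost by the same test. Ltf was at 1.93 (adjusted p = 0.0698), Lcn2 at 1.87 (adjusted p = 0.165) and Cxcr2 at 3.32 (adjusted p = 0.0705) there. Genes of the neutrophil precursor granule, Mpo, Elane, Prtn3 and Ctsg, were not called, at -0.55, -1.23, -0.83 and -0.53. The neutrophil sum was 24.7, 72.1 and 232 CPM in Cd79a-rich libraries and 2.80, 35.4 and 311 CPM in Cd79a-poor libraries, so the highest library was Cd79a-poor.

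Megakaryocyte and platelet genes moved in both directions. Of 11 genes 1 rose and 4 fell (45.5% called, against 51.5% of all genes tested), and the list median was -0.60. Itgb3, the beta 3 integrin that platelets pair with Itga2b and that macrophages also carry, had 1.88, 5.67 and 40.1 CPM in Cd79a-rich libraries and 0, 0.167 and 1.86 CPM in Cd79a-poor libraries without overlap, a change of 5.25 ± 0.76 (SE, adjusted p = 1.92e-05). Its partner Itga2b fell by 2.09, and Vwf, von Willebrand factor, fell by 1.46, both with overlapping classes. The platelet collagen receptor Gp6 fell by 3.51, a call lost without WT/KO replicate 1, 2, 3 or 5 or WT/WT replicate 1 or 3, where it ranged between -3.25 and -2.86. The list median was 0.71 with scaling by totals, below the all-gene median of 1.53 there, and moved to between -0.90 and -1.27 without any of 8 libraries (D45/KO replicates 1, 2 and 4, WT/KO replicates 2 and 5, WT/D45 replicate 1, and WT/WT replicates 1 and 2). Of 7 mast cell, basophil and eosinophil genes 1 rose (14.3%, against 28.7% of all genes tested), the IgE receptor chain Fcer1a, by 4.27. That call was lost without any single one of D45/KO replicates 1 and 4, the D45/D45 and WT/WT libraries and WT/KO replicates 1, 4 and 5. The change ranged between 3.69 and 4.30 there. Fcer1a was near 0 in both classes, with 0, 0.180 and 0.517 CPM in Cd79a-rich and 0, 0 and 1.49 CPM in Cd79a-poor libraries. No count was held by 4 Cd79a-rich and 8 Cd79a-poor libraries, and the highest value was in Cd79a-poor WT/D45 replicate 2. Mean levels were 0.186 and 0.166 CPM, so the size of this fold rests on few counts. Among 10 endothelial and stromal genes 2 rose (20%, against 28.7% of all genes tested) and 0 fell. Pecam1, which B cells, macrophages and platelets carry as well as endothelium, had 5.55, 25.9 and 60.6 CPM in Cd79a-rich libraries and 0.372, 1.54 and 4.70 CPM in Cd79a-poor libraries without overlap, a change of 4.04 ± 0.54 (SE, adjusted p = 8.92e-06). The endothelial receptor Kdr and the collagens Col1a1 and Col1a2 were not called, at 0.03, -0.87 and -1.26. The endothelial median of 1.59 was 1.03 without D45/KO replicate 2.

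Interferon-induced genes did not move as a group. Of 20 genes 4 rose and 7 fell (55% called, against 51.5% of all genes tested). The median was -0.13, and 1.16 with scaling by totals, still below the all-gene median there. The median turned positive without WT/KO replicate 5 (0.07) or WT/WT replicate 3 (0.06), and was -0.28 without D45/D45 replicate 1, -0.24 without WT/WT replicate 2, -0.06 without D45/KO replicate 3 and -0.05 without WT/KO replicate 1. Isg15, a ubiquitin-like modifier, had 55.4, 184 and 519 CPM in Cd79a-rich libraries and 409, 729 and 1686 CPM in Cd79a-poor libraries, a change of -2.21 ± 0.38 (SE, adjusted p = 0.000113). Ifit1, which binds foreign RNA, had 3.80, 10.4 and 18.7 CPM in Cd79a-rich libraries and 19.97, 30.8 and 68.7 CPM in Cd79a-poor libraries without overlap, and fell by 1.93. The antiviral enzyme Rsad2 also fell, by 2.05. In the other direction, Ifi27l2a, Mx1 and Gbp2 rose by 3.87, 3.68 and 1.93. Immediate early genes, which respond within minutes to stimulation or handling, included 6 that rose and 3 that fell of 14 (64.3% called, against 51.5% of all genes tested). Fosb, a partner of Jun in AP-1, rose by 4.07, and by 2.58 without WT/KO replicate 3. Nr4a1, a nuclear receptor induced by antigen receptor signals, and Zfp36, an mRNA decay factor, rose by 3.63 and 3.51. Btg2, an antiproliferative gene, had 193, 309 and 451 CPM in Cd79a-rich libraries and 618, 802 and 1068 CPM in Cd79a-poor libraries without overlap, and fell by 1.42. Ier3 fell by 1.93 and the phosphatase gene Dusp1 by 1.05, though Dusp1 stood at 0.24 with scaling by totals. The immediate early median of 1.78 rested on single libraries: it was 0.49 without WT/KO replicate 3, 1.13 without D45/KO replicate 3 and 1.14 without WT/KO replicate 5.

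Progenitor genes were mixed, with 8 that rose and 2 that fell of 15 (66.7% called, against 51.5% of all genes tested) and a median of 1.65. Kit, the stem cell factor receptor of early erythroid cells and mast cells, had 1.51, 3.67 and 11.04 CPM in Cd79a-rich libraries and 0, 0.577 and 3.84 CPM in Cd79a-poor libraries, a change of 3.17 ± 0.70 (SE, adjusted p = 0.000977). Its classes overlapped and its level was low in both. Myb, a factor of progenitors and cycling lymphocytes, had 2.85, 8.14 and 17.5 CPM in Cd79a-rich libraries and 0.317, 2.56 and 4.72 CPM in Cd79a-poor libraries, a change of 1.65 ± 0.41 (SE, adjusted p = 0.00247). Among libraries with identifiers of 200 or more, only 2 of them Cd79a-rich, neither was called. Kit was at 1.21 (adjusted p = 0.601) and Myb at 0.13 (adjusted p = 0.939) there. Gata2, which GATA1 replaces as erythroid cells mature, was not called at 1.97 ± 1.13 (SE, adjusted p = 0.153), but was without WT/D45 replicate 2 (2.51, adjusted p = 0.0318). The ETS factor Fli1 and the homeobox gene Hhex, both also expressed in B cells, rose by 4.43 and 3.50. Erg, another ETS factor, went the other way, with 0, 0 and 0.356 CPM in Cd79a-rich libraries, 5 of which held no count, and 0.414, 11.8 and 96.6 CPM in Cd79a-poor libraries. Its classes did not overlap and its change was -8.05 ± 1.16 (SE, adjusted p = 1.8e-05), the largest fall in any list. Lyl1, a basic helix-loop-helix factor close to Tal1, fell by 1.24, with 0.04 under scaling by totals.

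Erythroid transcription factors were lower in Cd79a-rich libraries. Of 18 genes 15 fell and 1 rose, with a median of -1.26, which became 0.03 under scaling by totals, still below the all-gene median there. Klf1 itself, the mutated gene, had 585, 282 and 676 CPM in the Cd79a-rich D45/KO libraries against 763 CPM in the Cd79a-poor one. In D45/D45 it had 710 CPM in the Cd79a-rich library against 1576 and 1394 CPM in the Cd79a-poor ones. WT/KO had 230, 158 and 191 CPM in Cd79a-rich libraries against 659 and 834 CPM in Cd79a-poor ones. The Cd79a-rich WT/D45 library had 551 CPM against 1101 and 1295 CPM in the Cd79a-poor ones. For WT/WT it was 452 CPM in the Cd79a-rich library against 1047 and 964 CPM in the Cd79a-poor ones. Within each genotype every Cd79a-rich library was below every Cd79a-poor one. The change was -1.29 ± 0.21 (SE, adjusted p = 7.46e-05), and 0.01 with scaling by totals. These counts check no label, since Klf1 transcripts stood at 158 CPM or more in every library and a missense allele is still transcribed. Gata1, the main erythroid GATA factor, had 109.9, 221 and 485 CPM in Cd79a-rich libraries and 341, 522 and 752 CPM in Cd79a-poor libraries, a change of -1.38 ± 0.18 (SE, adjusted p = 9.02e-06) with overlapping classes. Nfe2, a factor of globin and platelet genes, had 138, 284 and 624 CPM in Cd79a-rich libraries and 902, 1196 and 1459 CPM in Cd79a-poor libraries without overlap, a change of -2.15 ± 0.23 (SE, adjusted p = 1.27e-06). Tal1 and its partner Lmo2 fell by 1.60 and 1.99, and E2f2, a cell cycle factor of maturing erythroblasts, fell by 1.80. Under scaling by totals Gata1 and Tal1 lost their call, at -0.08 and -0.27. The 1 that rose was Bcl11a, which represses embryonic globin in erythroid cells and is also a B cell factor, with 11.4, 40.8 and 63.5 CPM in Cd79a-rich libraries and 2.14, 4.096 and 10.96 CPM in Cd79a-poor libraries without overlap, a change of 2.98 ± 0.24 (SE, adjusted p = 8.54e-08).

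**Figure D4:**
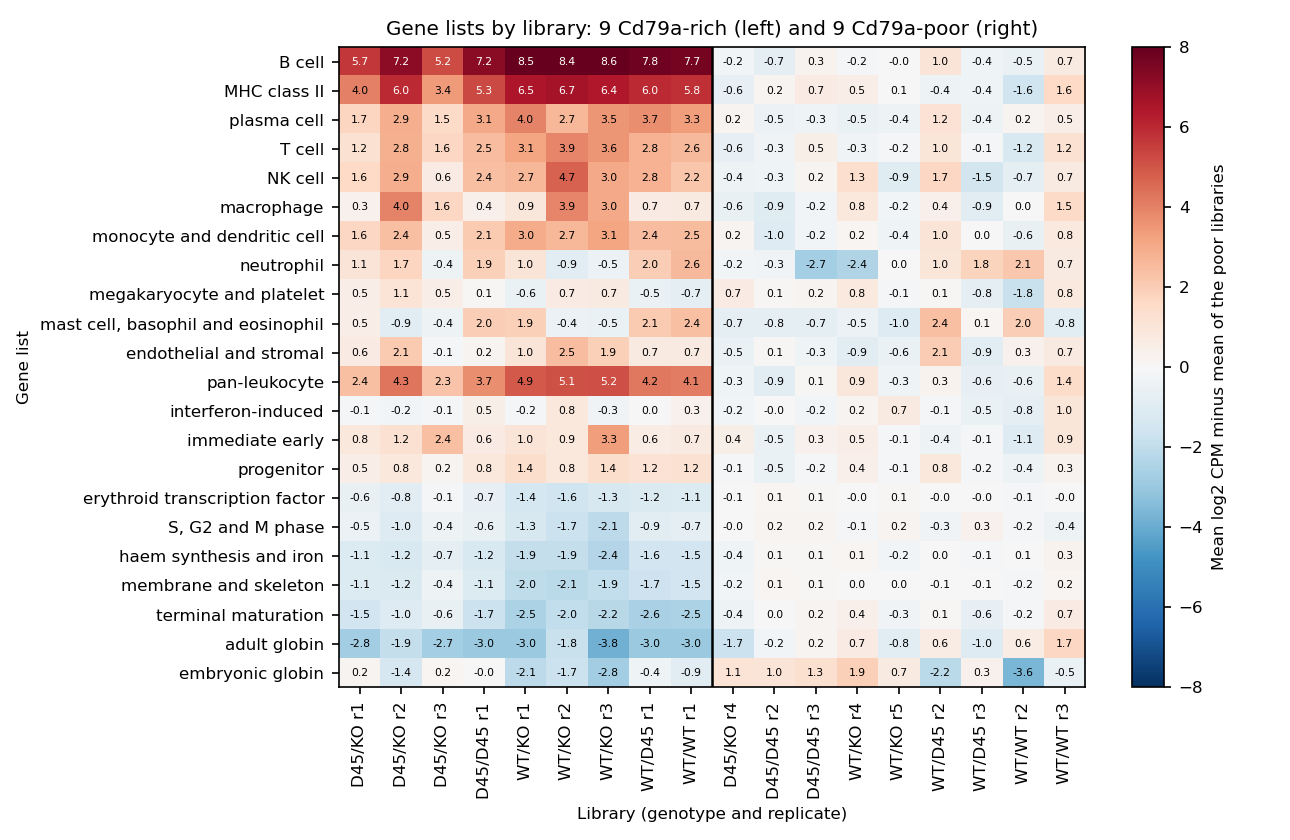
Mean log2 CPM of each gene list (rows) in each of the 18 libraries (columns), as the difference from the mean of the Cd79a-poor libraries (colour and printed value), with the 9 Cd79a-rich libraries on the left. The B cell, MHC class II and pan-leukocyte rows divide the 2 classes, and the erythroid transcription factor, haem, membrane and terminal maturation rows run the other way.

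Genes of the cell cycle were lower in Cd79a-rich libraries. Of 28 S, G2 and M phase genes 26 fell and 0 rose, with a median of -1.01 that was 0.27 with scaling by totals, still below the all-gene median there. Mki67, a marker of cycling cells, had 2044, 4108 and 9029.9 CPM in Cd79a-rich libraries and 5237, 6237 and 9661 CPM in Cd79a-poor libraries, a change of -0.92 ± 0.28 (SE, adjusted p = 0.0116), with 0.37 under scaling by totals. Ube2c and Birc5, which act at mitosis, and the mitotic kinase Cdk1 fell by 1.71, 1.53 and 1.38, each without overlap. Each lost its call under scaling by totals, at -0.37, -0.23 and -0.08. Mcm5, part of the replication helicase, had 148, 345 and 499.7 CPM in Cd79a-rich libraries and 284, 471 and 616 CPM in Cd79a-poor libraries and was not called (-0.52 ± 0.23 SE, adjusted p = 0.0606; 0.73 with scaling by totals). It was called without WT/D45 replicate 2 (-0.59), WT/WT replicate 1 (-0.65) or WT/WT replicate 3 (-0.57). The other gene not called was Mcm4, at -0.41.

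All 17 haem synthesis and iron genes tested fell, with a median of -1.53. That median was -0.21 with scaling by totals, still below the all-gene median there. Alas2, the erythroid enzyme that starts haem synthesis, had 2806, 3791 and 8448 CPM in Cd79a-rich libraries and 11097, 27041 and 57198 CPM in Cd79a-poor libraries, a change of -2.47 ± 0.46 (SE, adjusted p = 0.000211). Fech, which puts iron into the ring, fell by 2.09. Tfrc, which encodes the sorted surface marker CD71, had 711, 1421 and 2396 CPM in Cd79a-rich libraries and 2973, 3543 and 4641 CPM in Cd79a-poor libraries, a change of -1.42 ± 0.23 (SE, adjusted p = 7.05e-05). All 3 separated the classes without overlap. Under scaling by totals Tfrc lost its call, at -0.07. Among libraries with identifiers of 200 or more Alas2 was not called, at -1.22 (adjusted p = 0.244).

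Of 22 membrane and skeleton genes 21 fell and 0 rose, with a median of -1.67. That median was -0.33 with scaling by totals, still below the all-gene median there. Slc4a1, the anion exchanger band 3, had 5285, 8159 and 19495 CPM in Cd79a-rich libraries and 21723, 28264 and 35627 CPM in Cd79a-poor libraries, a change of -1.78 ± 0.35 (SE, adjusted p = 0.000324). Epor, the erythropoietin receptor, had 88.9, 215 and 344 CPM in Cd79a-rich libraries and 464, 537 and 621 CPM in Cd79a-poor libraries, a change of -1.47 ± 0.19 (SE, adjusted p = 8e-06). Neither gene overlapped between the classes. Under scaling by totals Epor lost its call, at -0.16. Among libraries with identifiers of 200 or more Slc4a1 was not called, at -1.60 (adjusted p = 0.0977). Tmod1, which caps actin filaments of the skeleton, and the blood group gene Rhd fell by 1.95 and 1.86. Epb4.1, protein 4.1, fell by 1.89 with overlapping classes, and Tmod3, a tropomodulin that many cells use, was not called at -0.00.

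All 18 terminal maturation genes fell, with a median of -2.02. That median was -0.66 with scaling by totals, still below the all-gene median there. Bnip3l (Nix), needed to clear mitochondria from reticulocytes, had 396, 729 and 1832 CPM in Cd79a-rich libraries and 2066, 4091 and 10003 CPM in Cd79a-poor libraries, a change of -2.54 ± 0.45 (SE, adjusted p = 0.000129). Bpgm, the red cell enzyme that makes 2,3-bisphosphoglycerate, had 776, 1674 and 3684 CPM in Cd79a-rich libraries and 4332, 10142 and 25849 CPM in Cd79a-poor libraries, a change of -2.73 ± 0.51 (SE, adjusted p = 0.000233). Neither overlapped between the classes. Among libraries with identifiers of 200 or more both lost their call, with Bnip3l at -0.99 (adjusted p = 0.274) and Bpgm at -1.06 (adjusted p = 0.310). Ube2l6, a conjugating enzyme for ubiquitin and ISG15, fell by 2.54 without overlap. Bcl2l1, the survival protein Bcl-xL, and Trim58, a ubiquitin ligase of late erythroblasts, fell by 2.59 and 1.83 with overlap. The adult beta globin gene Hbb-b1 had 13994, 25809 and 57463 CPM in Cd79a-rich libraries and 61542, 231299.7 and 639423 CPM in Cd79a-poor libraries, a change of -2.77 ± 0.73 (SE, adjusted p = 0.00399). For Beta-s, a second adult beta globin symbol of the table, the levels were 24503, 34650.1 and 68892 CPM in Cd79a-rich libraries and 85758, 302003 and 650358 CPM in Cd79a-poor libraries, a change of -2.72 ± 0.74 (SE, adjusted p = 0.005). Both separated the classes, but they are near copies of each other and the counting could share reads between them. CPM of the TMM-scaled library can sum past 1000000 where globin dominates a library, as these values show. The alpha globin symbols held almost no counts in any library, so globin shares here are those of beta globin. The 3 embryonic globin genes, at a median of -1.58, were not called.

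Maturation genes were set against cell cycle genes within each library. The stage index is the mean log2 CPM of terminal maturation genes minus that of S, G2 and M phase genes, and does not change with the scaling of a library. It was -0.08, 0.63 and 1.71 in Cd79a-rich libraries and 0.70, 1.68 and 2.75 in Cd79a-poor libraries, and 5 of 9 Cd79a-rich libraries were below all Cd79a-poor ones. On average it was 0.84 ± 0.70 in Cd79a-rich libraries and 1.68 ± 0.60 in Cd79a-poor libraries (SD, n = 9 each), a difference of -0.84 that carries no test. The difference is not seen in the 2 Cd79a-rich libraries with identifiers of 200 or more, D45/KO replicate 2 at 1.71 and WT/KO replicate 2 at 1.42, which lie inside the Cd79a-poor range. WT/KO replicate 3 and D45/KO replicate 3, with identifiers under 200, lie inside that range too. Within genotypes the difference was -0.09 in D45/KO, -1.11 in D45/D45, -0.54 in WT/KO, -1.41 in WT/D45 and -2.29 in WT/WT, and these differences were not tested against each other. The Cd79a-rich libraries with the highest index were D45/KO replicate 2 at 1.71 and WT/KO replicates 3 and 2 at 1.56 and 1.42, together with D45/KO replicate 3 at 1.44. The first 3 of these were also the highest in macrophage genes. The haem list minus the cell cycle list gave 1.13, 1.32 and 1.76 in Cd79a-rich libraries and 1.49, 1.84 and 2.60 in Cd79a-poor libraries. The part of leukocyte RNA in the index was not tested.

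**Figure D5:**
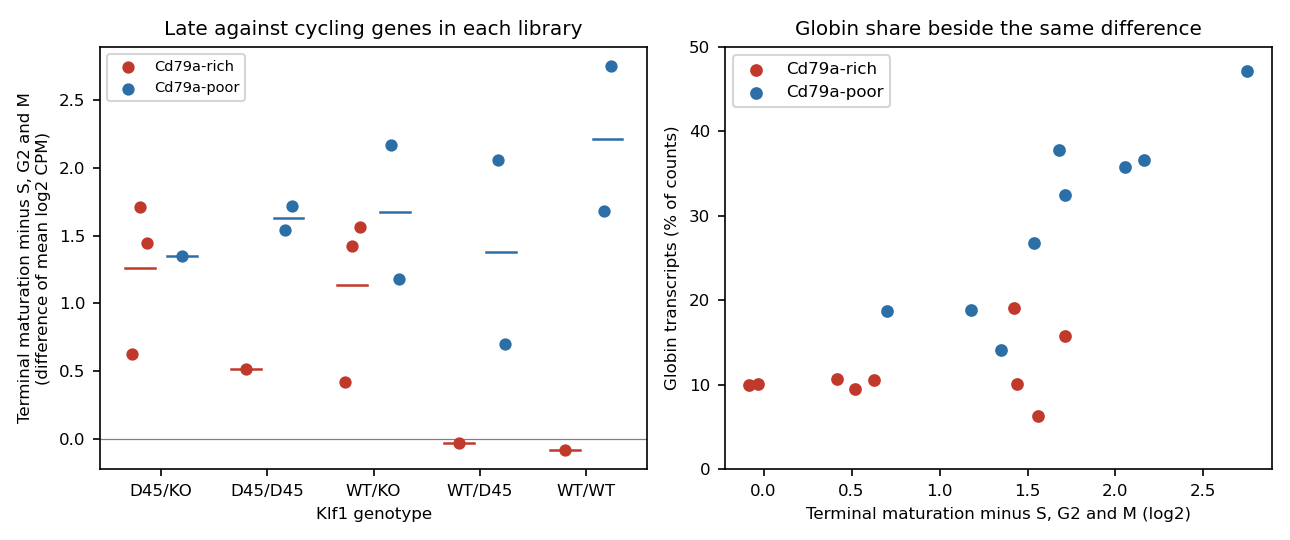
Left, the stage index of each library by Klf1 genotype, in log2 units (mean log2 CPM of terminal maturation genes minus that of S, G2 and M phase genes), Cd79a-rich left of Cd79a-poor, with bars at means; right, globin transcripts as a percentage of the counts against the same index. Cd79a-rich libraries span -0.08 to 1.71 and Cd79a-poor libraries 0.70 to 2.75, and the classes lie furthest apart in WT/WT.

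Within genotypes, the median differences of the terminal maturation, haem and membrane lists and of Hbb-b1 were smallest in D45/KO, though the interaction called 0 genes. Terminal maturation genes had median differences of -0.71 in D45/KO, -1.76 in D45/D45, -2.30 in WT/KO, -2.41 in WT/D45 and -2.81 in WT/WT. Haem genes had -0.69, -1.25, -2.13, -1.57 and -1.58, and membrane genes -0.70, -1.22, -2.25, -1.67 and -1.52, in the same order of genotypes. Hbb-b1 differed by -0.76 in D45/KO, -2.99 in D45/D45, -2.79 in WT/KO, -2.76 in WT/D45 and -4.11 in WT/WT. Cell cycle genes had -0.61, -0.73, -1.78, -0.98 and -0.51 across these 5 genotypes, so the smallest was in WT/WT. T cell genes were higher in each genotype, by 2.41, 2.56, 4.11, 2.42 and 2.56 at the median. The B cell list, given as a description, also differed least in D45/KO, with 6.08, 7.66, 9.31, 7.64 and 7.52 in the same order. The classes were thus less far apart in B cell transcripts there as well. MHC class II genes differed least in D45/D45, at 3.82 against 4.23 in D45/KO, and macrophage genes differed most in D45/KO. In each genotype other than D45/KO and WT/KO a single Cd79a-rich library carries the value, and D45/KO has a single Cd79a-poor one. Libraries with an identifier of 200 or more give a second, narrower view. All 9 Cd79a-poor libraries and 2 Cd79a-rich ones, D45/KO replicate 2 and WT/KO replicate 2, have such an identifier. Only D45/KO and WT/KO hold both classes there. With genotype as a block, the folds thus rest on D45/KO replicate 2 against replicate 4, and WT/KO replicate 2 against replicates 4 and 5. Among these 11 libraries the list medians were 4.97 for T cell, 4.13 for macrophage and 4.81 for endothelial genes. The erythroid medians were -1.40 for terminal maturation, -1.38 for haem, -1.70 for membrane, -1.51 for transcription factor and -1.37 for cell cycle genes, so maturation and cell cycle genes were lower by near equal amounts there. Of the 93 genes named by rule that could be tested in these libraries, 33 lost their call and 1, Mcm5, gained one. Hbb-b1 was at -1.13 (adjusted p = 0.543) and Beta-s at -1.22 (adjusted p = 0.524), both no longer called. Klf1, Gata1, Nfe2, Epor and Tfrc stayed called, at -1.85, -1.79, -2.18, -1.73 and -1.36. The mast cell median was 0.00 there, against 2.78 over all libraries. Both of these Cd79a-rich libraries stand out in macrophage genes, and D45/KO replicate 2 is a library of even counts.

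Outside the lists, the 5 named genes with the largest rise were near absent from Cd79a-poor libraries. Emid1, which encodes a secreted EMI domain protein, had 0.696, 4.16 and 11.3 CPM in Cd79a-rich libraries and no count in any Cd79a-poor library. With 2425 counts against 0, it was at least 278-fold higher in Cd79a-rich libraries, taking a floor of 3 counts over the group. Sema7a, a GPI-linked semaphorin that in humans carries a blood group antigen, had 6969 counts in Cd79a-rich and 2 in Cd79a-poor libraries, a ratio of 1197 with a counting interval of 331 to 9885. Trim7, a ubiquitin ligase, had 6463 counts against 3, a ratio of 740 (253 to 3589). Chst3, a chondroitin sulfotransferase, had 10.1, 42.6 and 126 CPM in Cd79a-rich libraries and 0, 0 and 2.22 CPM in Cd79a-poor libraries, a change of 8.89 ± 0.80 (SE). Il9r, the interleukin 9 receptor, had 5.65, 19.0 and 30.7 CPM in Cd79a-rich libraries and 0, 0 and 0.233 CPM in Cd79a-poor libraries, a change of 8.88 ± 0.56 (SE). The 5 with the largest fall besides the lists were Apol11b, Beta-s, Sec61g, Mkrn1 and Slc25a39. Apol11b, an apolipoprotein L gene, had 58.2, 252.2 and 828 CPM in Cd79a-rich libraries and 912, 1764 and 3268 CPM in Cd79a-poor libraries, a change of -3.18 ± 0.42 (SE, adjusted p = 7.72e-06). Sec61g, a subunit of the endoplasmic reticulum translocon, fell by 2.62, Mkrn1, a ubiquitin ligase, by 2.57, and Slc25a39, a mitochondrial carrier of glutathione, by 2.46. All of them separated the classes, which the rule for naming them required.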

How the data were processed

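Per the labels' protocols, cells were sorted from spleen by CD71 and Ter119, Trizol was used for the RNA, and libraries came from Swift's Rapid RNA kit. The authors deposited raw counts per gene symbol for 18 libraries, in 1 table of 23365 rows, of which 27 have date-like and 2 repeated symbols. HISAT2, featureCounts, limma and build mm9 are listed, without versions or roles, per the submitters' processing notes. The sources used here do not state the strand setting. Reads of overlapping or antisense genes therefore cannot be told apart. A deposited table of processed counts was not used here. The classes were set by Cd79a counts per 1000000 counts of the library.

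Counts were fitted as deposited with edgeR 4.0.16 in R 4.3.3 (TMM scaling, filterByExpr by genotype, quasi-likelihood test, genotype plus class). Adjusted p is Benjamini-Hochberg over 13405 genes, called under 0.05. Log2 levels used a prior count of 2. limma 3.58.1 and DESeq2 1.42.0 served as alternatives. On simulated counts of 12734 genes for this comparison, the fit recovered 22.7% of seeded 2-fold, 67.7% of 4-fold and 78.1% of 8-fold changes, and called 7 unchanged genes. Only 66, 65 and 64 genes were seeded at these folds, with rises and falls drawn at random. In the data 51.5% of genes were called, so the simulation gives no error rate for a shift of that extent.

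The division, its members and the gene lists were chosen with earlier results of these data known. Genes are named by a fixed rule: Klf1, the division's markers, set erythroid genes, the 3 steepest called rises and falls in each list at most, and outside the lists the 5 with the largest rise and fall among named genes at a mean of 2 CPM or more whose classes do not overlap. Some genes the rule names are not reported here, and other list members are named to show what was not called. Count ratios carry exact 95% intervals, which cover counting error only, as does the floor of 3 counts. Samples have separate mouse identifiers, and p-values measure the spread between them.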

Additional observations from a re-analysis of the deposited data

Results flagged for a closer look

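Values of 1 library that stood apart from the other libraries of its class by Dixon's test were found in 18 of 248 sets of 9 values, where chance gives about 1 in 20. WT/KO replicate 3 stood apart among Cd79a-rich libraries in Rn45s, at 11.5% of counts, in Cxcr2, at a log2 CPM of 2.57, and in Ier3, at -4.21. Among Cd79a-poor libraries, WT/D45 replicate 2 stood apart with 9782 genes at 1 CPM of the total or more, and with log2 CPM of 2.04 for Clec9a and 0.63 for Fcer1a. WT/WT replicate 2 stood apart with 72.7% even counts and with log2 CPM of -1.43 for Myb, 3.96 for Vwf and 1.18 for Chst3. WT/WT replicate 3 did so for H2-Oa at -0.94, Trim7 at -1.31 and Il9r at -1.80, and D45/D45 replicate 3 for the B cell gene Faim3 at -0.47 and the T cell gene Cd3g at -0.040. The remaining Cd79a-poor values were those of WT/KO replicate 4 for Gzmb at 0.54, and of D45/KO replicate 4 for Rhd at 10.57 and Sema7a at -3.16. Several of these genes had few or no counts in the other Cd79a-poor libraries, where single counts set the gap.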

How the results depend on the processing

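The 6899 calls (3846 higher, 55.7%) stayed within 6026 to 7104 calls, 3210 to 4104 higher and 52.2% to 58.4% higher when each library was left out in turn, and class by genotype calls stayed at 0. Scaling by totals called 9384 genes, 9122 of them (97.2%) higher. DESeq2's test called 7829 genes (66.0% higher), limma-voom 7463 and 8647 with library weights, the robust edgeR fit 6875, and the fits with no genotype block and with no filter 6856 and 6790; with no filter the interaction called 257 genes. Dividing the libraries by mouse identifier (under 200 or not) instead of Cd79a, which moves 2 libraries, called 1869 (518 higher, 27.7%). Keeping identifiers of 200 or more called 3469 (1509 higher, 43.5%) and ended 33 of the calls of named genes. The folds rest there on D45/KO and WT/KO, the only genotypes with both classes. Keeping all WT/KO and D45/KO libraries called 5008. Leaving out both libraries of even counts, chosen after seeing the data, called 5806 (2986 higher). Whether replicate numbers pair the samples was not settled. Of 31 same-numbered pairs 18 correlated above 0.1 (-0.46 to 0.77), and 9 of 18 libraries correlated best with their own number. Class was not taken out of these correlations, so they cannot tell a pairing from the class. The replicate block called 1472 genes (824 higher), and all 5 replicate 1 libraries are Cd79a-rich, so the block and the class overlap. The neutrophil median was 0.46 under the block, and Myb was no longer called at 1.22. Of 94 named genes, 49 kept direction and call under the block, 43 lost the call and 2 turned, Lcn2 at -0.28 and Fcer1a at -2.9998. By identifier 41 kept both and Timd4 turned, at -0.10, and with no genotype block Gp6 turned, at 0.31. Under totals 5 turned: Klf1 at 0.010, Mki67 at 0.37, Mcm5 at 0.73, Dusp1 at 0.24 and Lyl1 at 0.045. A further 12 lost their call under totals while keeping direction: Gata1, Tal1, Epor, Tfrc, Ube2c, Birc5, Cdk1, Btg2, Ier3, Ifit1, Vwf and Gp6. Gata2 gained a call there, and 76 of the 94 kept both. The cause of these differences was not tested. Leaving out single libraries ended the call of 6 of the 92 named genes that were called and added a call for 2. Depth limits the low genes: 1 CPM of the total stands for 9.36 to 56.3 counts in a library.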
